A study of Mus musculus with 2 samples.

Results

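The dorsoventral patterning transcription factors of the eye were taken as 6 genes, the T-box genes *Tbx2*, *Tbx3* and *Tbx5*, the ventral homeobox genes *Vax1* and *Vax2*, and the paired box gene *Pax2*. They were chosen by name, and all 6 were found among the 31053 genes of the deposited counts. The counts came from single cells of mouse eye cups at e13.5 (embryonic day), in 1 library per genotype, each made from 3 pooled samples on the 10X Genomics 3′ platform. The control library was *Myrf* fl/fl, with floxed alleles of the transcription factor gene *Myrf*, and the mutant library was *Rx>cre Myrf* fl/fl, which carries the same floxed alleles and a Cre transgene driven from *Rx*, a gene of the early eye field. The cross is designed to delete *Myrf* in the retina and in the retinal pigment epithelium (RPE), whereas blood, vessels, periocular mesenchyme and melanocytes come from other lineages. Cornea, lens and optic nerve had been dissected off before the cells were dissociated, so most of the tissue that forms from the optic stalk was outside the measurement. No wild-type eyes and no eyes with *Rx>cre* alone were analysed here. The values were read to ask in which cells each factor was detected, which factors shared cells, and how their levels stood in the mutant library beside the control library.

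The dorsal and the ventral side of the optic cup are set apart early by opposing transcription factors. Bone morphogenetic protein (BMP) signals on the dorsal side maintain the T-box genes, Vax genes mark the ventral side and oppose them, and *Pax2* marks the optic stalk and the optic disc, where *Vax1* is known as well. The factors act ahead of ephrins and Eph receptors, which later guide ganglion cell axons by their position, and of the retinoic acid enzymes *Aldh1a1* on the dorsal and *Aldh1a3* on the ventral side.

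The deposited counts held 6039 control and 6754 mutant barcodes with 63483835 and 75228861 UMIs (unique molecular identifiers, 1 for each captured transcript). After filters on genes, mitochondrial UMIs and doublets, 5468 control and 6300 mutant cells were kept, with medians of 11332 and 11154 UMIs. A total of 72 barcodes occurred in both libraries, 1.19% of the control and 1.07% of the mutant barcodes. All 98 values recomputed without those cells stayed within the counting interval of the main value or, for a number of genes, within 1.5 times. Cells fell into 29 clusters, of which 6 stayed unnamed (21.2% of control and 19.1% of mutant cells) and the others formed 14 classes named X-like after their markers. The retinal progenitor-like class (1637 control and 1740 mutant cells) joined 5 clusters, in which between 3 and 11 of 12 progenitor markers were high, and the RPE-like class (254 and 153 cells) was 1 cluster with 10 of 10 RPE markers high. Levels are given in CPM, the UMIs of a gene per 1000000 UMIs of the class. *Myrf* itself stood at 74.8 CPM (63.4 to 87.5) in control and 20.1 CPM (upper bound 28.6) in mutant RPE-like cells. A single library of each genotype gives no replicate error, so differences were not tested, and all 95% intervals in parentheses (exact Poisson for CPM, exact binomial for shares and ratios) cover counting error only.

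*Tbx2* lies on chr11:85832551-85841948 of mm10 (plus strand), and *Tbx3* and *Tbx5* lie near each other on chr5:119670669-119684724 and chr5:119832668-119885219 (both plus strand). *Vax2* lies on chr6:83711264-83738313 (plus strand), while *Vax1* (chr19:59166187-59170056, minus strand) and *Pax2* (chr19:44756045-44837871, plus strand) share a chromosome. The counting read the 3′ end of transcripts. The annotated *Vax1* transcript ends at its stop codon with 0 bases of 3′ untranslated region, against 330 bases in *Vax2* and between 934 and 1844 bases in the T-box genes and *Pax2*. Levels are therefore compared between cells for each gene and not between genes. Related members are close in coding sequence, which bears on whether reads can be told apart. The paralogous pairs are shown by the 120-base coding stretch in which they were most alike, each as the coding strand from 5′ to 3′ of GRCm38, the assembly of mm10, with bases that differ from the partner in capitals.
*Vax1* (exon 2, chr19:59168519-59168638, minus strand): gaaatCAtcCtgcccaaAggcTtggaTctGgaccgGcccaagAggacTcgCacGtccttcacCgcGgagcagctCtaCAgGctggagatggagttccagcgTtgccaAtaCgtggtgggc
*Vax2* (exon 2, chr6:83733119-83733238, plus strand): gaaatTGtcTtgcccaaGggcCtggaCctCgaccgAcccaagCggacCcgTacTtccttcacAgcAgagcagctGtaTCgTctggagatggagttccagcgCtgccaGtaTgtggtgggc
*Tbx2* (exon 1, chr11:85833380-85833499, plus strand): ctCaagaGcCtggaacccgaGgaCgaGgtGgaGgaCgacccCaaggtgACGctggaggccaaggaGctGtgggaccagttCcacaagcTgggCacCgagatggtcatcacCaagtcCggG
*Tbx3* (exon 1, chr5:119672283-119672402, plus strand): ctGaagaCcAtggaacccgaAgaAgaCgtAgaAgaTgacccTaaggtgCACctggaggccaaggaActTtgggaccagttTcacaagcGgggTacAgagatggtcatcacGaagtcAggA
The Vax stretches were alike in 99 of 120 bases (82.5%), with a longest shared run of 20 bases, and the *Tbx2* and *Tbx3* stretches in 98 of 120 (81.7%), with a run of 14. Over whole transcripts, the longest run shared by any pair of the 6 genes was 23 bases, between *Vax1* and *Vax2*. The stretches lie in exon 1 of 7 and of 8 for *Tbx2* and *Tbx3* and in exon 2 of 3 for the Vax genes, ahead of the last exon.

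*Tbx2*, a T-box repressor of the dorsal retina, was found in the retina and in cells of the neural crest. The retinal progenitor-like cells held 55.6% of its control UMIs and 58.1% of its mutant UMIs, at 35.8 CPM (33.1 to 38.5) and 36.7 CPM (34.0 to 39.5). Its highest level was in the melanocyte-like cells, at 155 CPM (129 to 184) in 34 control cells and 109 CPM (84.7 to 137) in 25 mutant cells, and 29 and 21 of those cells had a *Tbx2* UMI. Schwann or neural crest-like cells stood at 29.7 CPM (13.6 to 56.5) and 28.3 CPM (16.2 to 45.9), with intervals that held the progenitor levels, and muscle-like cells at 21.5 and 10.2 CPM from 13 and 7 UMIs. Neurogenic precursor-like cells (16.8 and 14 CPM) and ganglion cell-like cells (16.0 and 14.8 CPM) were below the progenitors, and their intervals overlapped each other. Periocular mesenchyme-like cells held 8.73 CPM in the control and 8.70 CPM in the mutant library. Red blood-like cells, which should lack the gene, had 0.710 and 1.95 CPM.

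*Tbx3*, a close relative of *Tbx2*, differed from it in where it was highest. Amacrine or horizontal-like cells stood at 40.2 CPM (24.2 to 62.8) in 44 control cells and 36.6 CPM (23.2 to 54.8) in 60 mutant cells. Neurogenic precursor-like cells had 24.1 CPM (19.0 to 30.2) and 25.6 CPM (20.6 to 31.5), above the progenitors at 15.8 CPM (14 to 17.6) and 18.6 CPM (16.7 to 20.6), although the mutant intervals met at their ends. The melanocyte-like cells that were high in *Tbx2* held 2 and 1 UMIs of *Tbx3*, and the RPE-like cells 3 in each library. Ganglion cell-like cells held 49 and 55 UMIs of it, and periocular mesenchyme-like cells stood at 2.0 and 1.86 CPM.

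*Tbx5*, a T-box gene of the dorsal retina, was sparse. The progenitor-like cells held 68 of 98 control UMIs (69.4%) and 84 of 122 mutant UMIs (68.9%), at 3.53 CPM (2.74 to 4.48) and 4.41 CPM (3.52 to 5.46). Neurogenic precursor-like cells had 1.59 and 2.56 CPM and ganglion cell-like cells 1.66 and 4.18 CPM, and the intervals of these classes overlapped. RPE-like cells held 1 control UMI and no mutant UMI, and 0 of 1495047 UMIs allow up to 2.01 CPM by a floor of 3 UMIs and 2.47 CPM by the exact interval.

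*Vax2*, the homeobox factor of the ventral retina, gave the most UMIs of the 6 genes and was found in every neural class of the retina. The progenitor-like cells held 76.9% of its control and 76.4% of its mutant UMIs, at 166 CPM (159.9 to 171) and 145 CPM (139 to 150.0). The level was lower in neurogenic precursor-like cells, at 118 CPM (106 to 131) and 91.8 CPM (82.0 to 102), and in ganglion cell-like cells, at 84.1 CPM (75.0 to 94.1) and 73.5 CPM (65.9 to 81.9). Control amacrine or horizontal-like, ganglion cell-like and photoreceptor precursor-like cells, at 88.9, 84.1 and 79.1 CPM, did not differ beyond their intervals. Mutant photoreceptor precursor-like cells, at 33.9 CPM (16.9 to 60.6), lay below ganglion cell-like cells, and amacrine or horizontal-like cells, at 62.0 CPM (44.1 to 84.7), overlapped both. RPE-like cells had 40 CPM (31.9 to 49.6) and 22.1 CPM (15.2 to 31.0), both far above the red blood-like cells at 2.13 and 2.14 CPM. Melanocyte-like cells had 0 *Vax2* UMIs in both libraries. That allows up to 3.54 and 4.66 CPM by a floor of 3 UMIs and 4.36 and 5.73 CPM by the exact interval, below the RPE-like levels. The RPE-like cells also held retinal progenitor genes, at 1171 and 913 CPM summed over 8 genes. What part retinal RNA had in their *Vax2* level was not tested, so the difference is between the classes as measured.

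*Vax1* and *Pax2* shared a pattern that set them apart from *Vax2*, since both were highest in the RPE-like cells. *Vax1* stood at 7.72 CPM (4.41 to 12.5) and 8.70 CPM (4.63 to 14.9) there, and at 3.17 CPM (2.43 to 4.07) and 4.30 CPM (3.42 to 5.34) in the progenitor-like cells. *Pax2* stood at 18.3 CPM (13 to 25.2) and 17.4 CPM (11.4 to 25.5) in RPE-like cells and at 5.41 CPM in the progenitor-like cells of both libraries (4.42 to 6.55 and 4.41 to 6.56). The RPE-like level of *Pax2* was above the progenitor level in both libraries beyond the counting intervals, and that of *Vax1* in the control library but not in the mutant library. Few cells carried these UMIs, since 8 control and 9 mutant RPE-like cells had *Vax1* and 17 and 12 had *Pax2*. A single control cell gave 6 of the 16 *Vax1* UMIs and a single control cell 8 of the 38 *Pax2* UMIs. Neither gene had a UMI in red blood-like cells, and *Pax2* had none in periocular mesenchyme-like cells of either library.

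**Figure D1:**
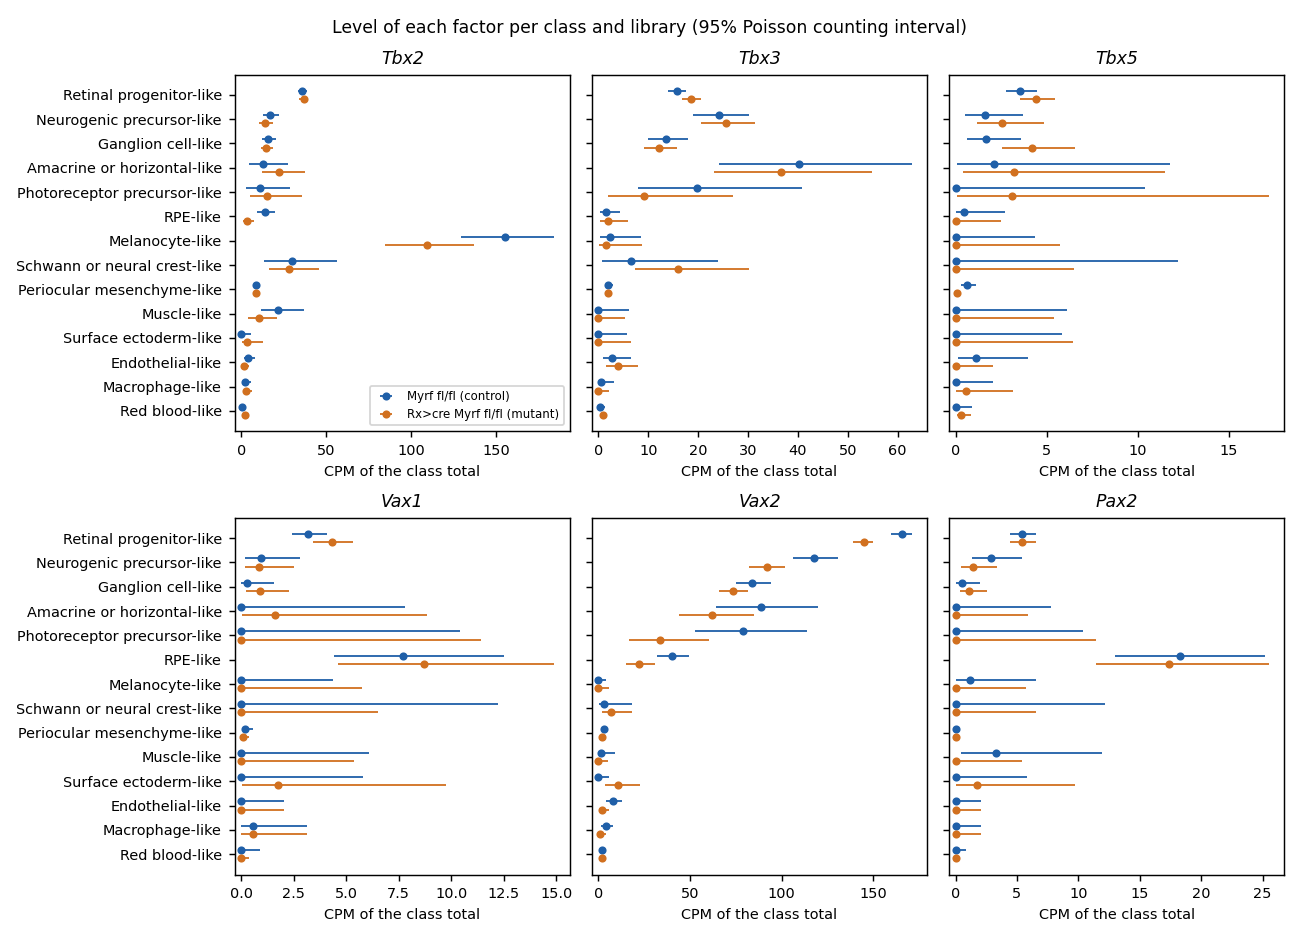
Level of each factor in CPM of the class total (x axis) in the 14 named classes (y axis), with the control library in blue, the mutant library in orange and 95% Poisson counting intervals as bars. *Tbx2* is highest in melanocyte-like cells, *Tbx3* in amacrine or horizontal-like cells, *Vax2* in retinal progenitor-like cells, and *Vax1* and *Pax2* in RPE-like cells.

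Within the progenitor-like class, the control levels of *Vax2* ranged from 118 to 193 CPM and those of *Tbx2* from 18.8 to 47.6 CPM over the 5 clusters, so neither gene was confined to a cluster. *Pax2* was uneven, with 10.1 CPM (7.69 to 13) in the control and 10.3 CPM (7.99 to 13.1) in the mutant cells of the cluster that also led in *Vax2os*, *Aldh1a1* and *Sfrp2*, and at most 6.52 CPM in the other clusters of the class. *Vax1* had 19 control and 62 mutant UMIs in that cluster (3.19 and 9.71 CPM) and 31 and 15 UMIs in the cluster led by *Fgf15* (4.08 and 2.09 CPM).

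Between the libraries, none of the 6 factors passed 1.5-fold in the progenitor-like class, where 5.35% of 12879 genes did. The median gene lay at -0.02 on the log2 scale of mutant over control. *Tbx2* had 688 control and 699 mutant UMIs, a log2 ratio of 0.04 (-0.12 to 0.19), and *Pax2* had 104 and 103, a log2 ratio of 0.00 (-0.41 to 0.41). *Tbx3*, from 303 and 354 UMIs, had 0.24 (0.01 to 0.46), with the lower end of its interval at the edge of no difference. *Tbx5*, with 68 and 84 UMIs, had 0.32 (-0.16 to 0.80), and *Vax1*, with 61 and 82, had 0.43 (-0.05 to 0.94). These last ratios turned to -0.31 for *Tbx5* and -0.22 for *Vax1* under a mitochondrial limit of 5%, and to -0.85 (-1.66 to -0.14) for *Vax1* at a clustering resolution of 1.6.

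*Vax2* gave a small difference in 1 direction. It had 3185 control and 2753 mutant UMIs in progenitor-like cells, a log2 ratio of -0.20 (-0.27 to -0.12), and the ratio ranged no further than from -0.29 to -0.18 over the alternatives that summed UMIs. All 8 classes in which *Vax2* had at least 20 UMIs gave ratios below 0, with intervals below 0 in 4 of them. In red blood-like cells, at 2.13 and 2.14 CPM, the sign of the ratio (-0.08, -1.17 to 1.31) came from the added UMI. The share of all genes below 0 in these classes is not given here, so the count is a description. In neurogenic precursor-like cells the ratio was -0.36 (-0.58 to -0.14) from 372 and 322 UMIs, and in ganglion cell-like cells -0.19 (-0.42 to 0.03) from 305 and 334 UMIs. In photoreceptor precursor-like cells it was -1.15 (-2.38 to -0.17) from 28 UMIs in 29 control cells and 11 UMIs in 30 mutant cells, past 1.5-fold in a class where 10.1% of genes were at least 1.5-fold lower. Only 12 control and 6 mutant cells of that class had a *Vax2* UMI. A single control cell held 9 of the 28 UMIs and a single mutant cell 4 of the 11, which the counting interval does not cover. The ratio in periocular mesenchyme-like cells, -0.61 (-1.30 to 0.06, where 3.99% of genes were at least 1.5-fold lower), rests on 44 and 35 UMIs at levels of 2.93 and 1.91 CPM, close to the 2.13 and 2.14 CPM of red blood-like cells. These 8 ratios share the 2 libraries and are not independent of each other.

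The lower *Vax2* sum of the mutant progenitor-like cells went with fewer cells that had any *Vax2* UMI. It was detected in 48.7% (46.3 to 51.2) of control and 43.0% (40.7 to 45.4) of mutant progenitor-like cells, at median depths of 10782 and 10244.5 UMIs, against 2.88% and 2.46% of red blood-like cells at 22476.5 and 22723.5 UMIs. Among the cells with a *Vax2* UMI, the level was 269 CPM (259.9 to 279) in 798 control cells and 259 CPM (249 to 268) in 749 mutant cells. Fewer ventral cells in the pool and less *Vax2* RNA per ventral cell cannot be told apart by the sums alone, nor can a difference in how much ventral tissue the dissection of each pool kept.

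Over all classes, 29 pairs of factor and class had enough UMIs to be compared, of which 9 lay above 0 and 19 below. Of these, 3 were at least 1.5-fold higher and 5 at least 1.5-fold lower in the mutant library. The shares of all genes above and below 0 are not given here, so the counts of 9 and 19 are a description. The 3 higher were *Tbx5* in ganglion cell-like cells (6 and 19 UMIs, 1.19, -0.04 to 2.95, where 3.12% of genes were at least 1.5-fold higher), *Tbx2* in amacrine or horizontal-like cells (6 and 14 UMIs, 0.69, -0.66 to 2.48, 7.99%) and *Tbx2* in red blood-like cells (3 and 20 UMIs, 1.11, -0.30 to 3.85, 35.5%). All 3 intervals spanned 0. The 5 lower were *Vax2* in photoreceptor precursor-like, RPE-like and periocular mesenchyme-like cells, *Tbx2* in RPE-like cells, and *Tbx2* in muscle-like cells (13 and 7 UMIs, -0.99, -2.64 to 0.36, where 12.4% of genes were at least 1.5-fold lower).

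**Figure D2:**
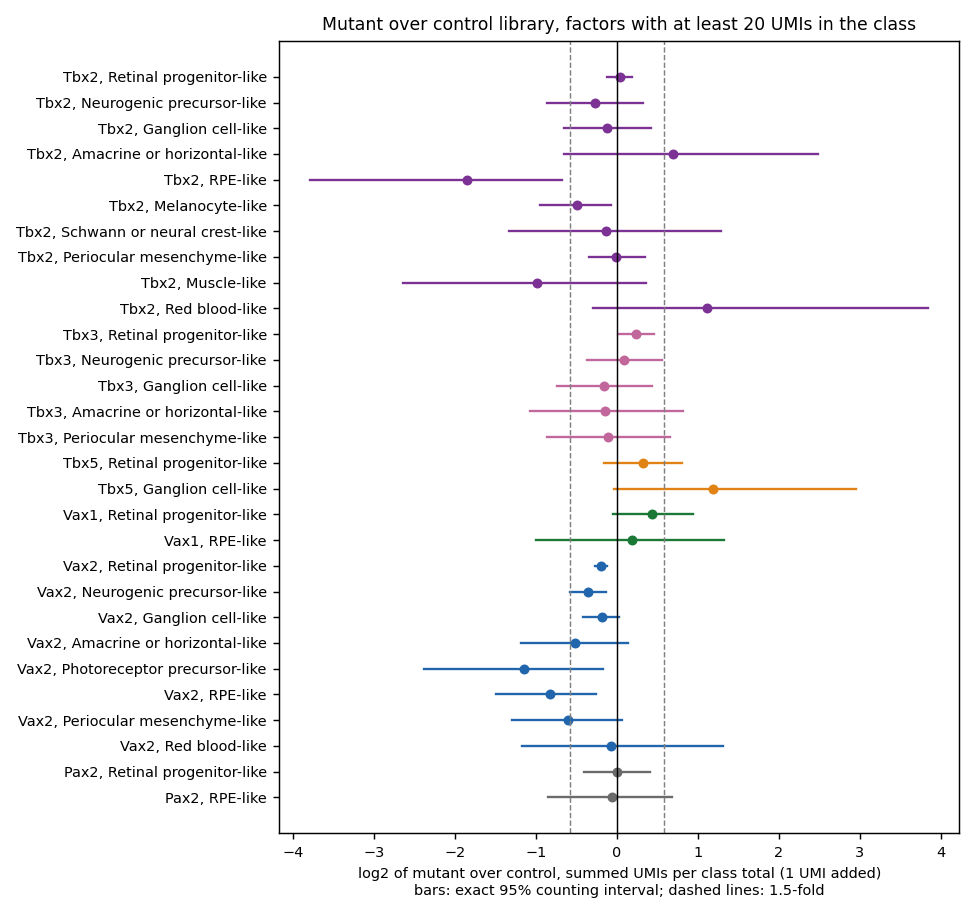
Log2 ratio of mutant over control (x axis) for each factor and class with at least 20 UMIs over both libraries (y axis), coloured by factor, with exact 95% counting intervals as bars and dashed lines at 1.5-fold. The 8 *Vax2* points lie to the left of 0, and *Tbx2* in RPE-like cells, at -1.85, lies farthest from 0.

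The RPE, which forms from the outer layer of the optic cup and is the tissue in which *Myrf* is known to act, had the lowest of these ratios. *Tbx2* had 29 UMIs in 23 of 254 control RPE-like cells and 5 UMIs in 5 of 153 mutant cells. Its level was 14 CPM (9.37 to 20.1) in the control and 3.34 CPM (1.09 to 7.80) in the mutant library, a log2 ratio of -1.85 (-3.79 to -0.68), where 10.8% of 9709 genes were at least 1.5-fold lower. When RPE-like cells were chosen by a marker rule per cell, the ratio was -0.90 (-2.50 to 0.25).

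*Vax2* in the RPE-like class had 83 UMIs in 55 control cells and 33 UMIs in 26 mutant cells, a log2 ratio of -0.83 (-1.49 to -0.26), and -0.82 (-1.55 to -0.20) under the rule per cell. *Pax2*, with 38 and 26 UMIs, had -0.06 (-0.85 to 0.68), and *Vax1*, with 16 and 13 UMIs, had 0.19 (-1.0 to 1.32). The factors gave unlike ratios in the RPE-like cells, and the intervals of *Vax1* and *Pax2* still hold ratios of 1.5-fold in either direction.

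Other marker sums differed in the same cells. The 10 RPE markers summed to 13751 and 9740.2 CPM (-0.50, -0.53 to -0.47), the 8 retinal progenitor genes stood at 1171 and 913 CPM (-0.36, -0.46 to -0.26), and the 8 red blood markers at 939 and 1379.9 CPM (0.56, 0.47 to 0.65, with 7 of the 8 detected). The 6 melanocyte markers that the RPE list does not hold stood at 1001 and 756 CPM (-0.40, -0.51 to -0.30), with 5 of the 6 detected. The progenitor genes, like *Vax2*, were lower in the mutant than in the control RPE-like cells. What part retinal or melanocyte RNA had in the RPE-like values of *Vax2* and *Tbx2* was not tested.

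Within the RPE-like class, *Vax1* and *Pax2* went together in the control cells. A total of 6 of the 8 control cells with *Vax1* also had *Pax2*, and the cells with *Pax2* held 14 of the 16 *Vax1* UMIs, at 53.3 CPM (29.1 to 89.5) against 1.10 CPM (0.134 to 3.99) in the cells without *Pax2*. In the mutant library 2 of the 9 cells with *Vax1* had *Pax2*, and the cells with *Pax2* held 2 of the 13 *Vax1* UMIs, at 8.80 CPM (1.07 to 31.8) against 8.68 CPM (4.33 to 15.5). Cells with *Pax2* were deeper than the rest, with medians of 17049 against 2716 UMIs in the control and 19322.5 against 2750 UMIs in the mutant library, and the part of depth in these values was not tested.

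The RPE-like cells with *Pax2* had RPE markers, but at a lower level. RPE markers summed to 8291 CPM (7946 to 8647) in them and to 14542 CPM (14367 to 14719) in the control cells without *Pax2*, and to 6216 and 10372 CPM in the mutant library. The 4 optic disc and stalk genes (*Ntn1*, *Bmp7*, *Sema5a* and *Fabp7*) summed to 239.9 CPM (184 to 307) in control cells with *Pax2* and 93.3 CPM (79.8 to 109) in those without, and to 220.1 and 95.4 CPM in the mutant library. None of these *Pax2* cells had a *Tbx2* or *Tbx5* UMI in either library, and the mutant ones held 1 UMI of *Tbx3*. The zeros cannot show that *Pax2* cells lack these genes. The whole RPE-like class held 1 control and 0 mutant *Tbx5* UMIs, and 5 mutant *Tbx2* UMIs. For control *Tbx2*, the counting intervals of the cells with and without *Pax2* overlapped. RPE markers were also lower in RPE-like cells with *Vax2*, at 12946 against 14284 CPM in the control and 8189 against 10478 CPM in the mutant library. Cells with *Pax2* and cells with *Vax2* were both deeper than the rest, and the part of depth in the marker sums was not tested. The splits by *Pax2* and *Vax2* were made after the data were seen, and the cells with *Pax2* are few.

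Melanocyte-like cells, which do not descend from the *Rx* lineage, had the highest *Tbx2* level of the named classes. *Tbx2* had 131 UMIs in 34 control cells and 70 UMIs in 25 mutant cells, a log2 ratio of -0.50 (-0.95 to -0.08), within 1.5-fold. The richest cell held 12 of the control and 13 of the mutant UMIs, so the sums did not rest on a single cell.

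Within the progenitor-like class, *Vax2* was less often found in cells with a T-box UMI. Cells were thinned at random to 3000 UMIs each, which left 1444 control and 1523 mutant cells at equal depth. *Vax2* was detected in 16.1% (9.98 to 24.0) of the 118 control cells with *Tbx2* and 32.2% of those without, a difference of -16.1 percentage points (-22.2 to -8.03). In the mutant library it was detected in 10.1% of 139 cells with *Tbx2* and 27.9% of those without, a difference of -17.8 points (-22.5 to -11.3), or -9.05 points (-16.4 to 0.474) under a mitochondrial limit of 5%.

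*Tbx3* gave the same direction. *Vax2* was found in 6 of 63 control cells with *Tbx3* (9.52% against 31.9%, -22.3 points, -28 to -12.3) and in 5 of 79 mutant cells (6.33% against 27.4%, -21.0 points, -25.3 to -13.1). *Tbx5* cells were few after thinning, and *Vax2* was found in 2 of 12 control cells (-14.3 points, -26.6 to 13.9) and in 0 of 20 mutant cells (-26.6 points, -28.9 to -10.4). Without thinning, the differences for *Tbx5* were -35.5 points (-43.1 to -22.9) and -40.9 points (-44.4 to -32.1).

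The ventral factors went the other way. *Vax2* was detected in 6 of 10 control cells with *Vax1* (60.0% against 30.7%, 29.3 points, 0.481 to 52.6) and in 11 of 17 mutant cells (64.7% against 25.8%, 38.9 points, 15.4 to 57.0). In the mutant library the difference for *Vax1* was 10.1 points both at a clustering resolution of 1.6 (-17.1 to 56.1) and with the class set by a rule per cell (-11.2 to 38.5). *Pax2* gave no steady value, with *Vax2* in 5 of 23 control cells with *Pax2* (-9.30 points, -21.6 to 11) and in 10 of 20 mutant cells (24.1 points, 3.85 to 44.2), and the control difference turned to 22.4 points (10.1 to 32.5) without thinning and the mutant one to -5.07 points (-18.3 to 24.5) at a resolution of 1.6.

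The T-box genes shared cells with each other, with wide intervals. *Tbx3* was found in 9 of the 118 control cells with *Tbx2* (3.55 points, -0.206 to 9.86) and in 15 of the 139 mutant cells (6.17 points, 1.84 to 12.5). It was found in 2 of 12 control cells with *Tbx5* (16.7% against 4.26%, 12.4 points, 0.379 to 40.6) and in 7 of 20 mutant cells (35.0% against 4.79%, 30.2 points, 13.3 to 51.9). *Tbx2* was found in 2 of those 12 control cells (8.57 points, -3.50 to 36.7) and in 6 of those 20 mutant cells (21.2 points, 5.62 to 43.1). No cell had both *Vax1* and *Tbx5* in either library, but with 10 control and 17 mutant *Vax1* cells this depth could not show a difference. Of the 15 pairs of factors, the rest involved under 30 cells with 1 of the pair, and cells of a library are not replicates.

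**Figure D3:**
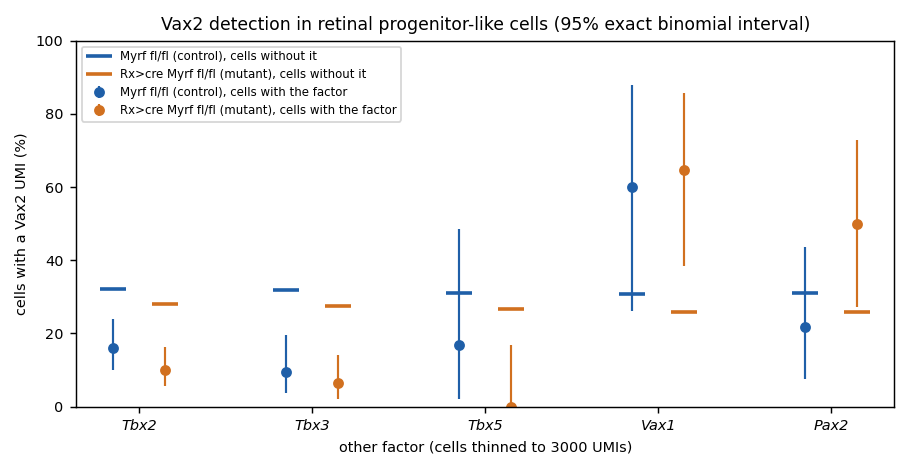
Share of retinal progenitor-like cells with a *Vax2* UMI (y axis, %) among cells with each other factor (points, exact 95% binomial intervals) and among cells without it (dashes), in the control (blue) and mutant (orange) library after thinning to 3000 UMIs. The points lie under the dashes for *Tbx2*, *Tbx3* and *Tbx5* and above them for *Vax1*, while those for *Pax2* lie on either side.

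The levels were graded as well. Progenitor-like cells with at least 10000 UMIs were placed by how many of 10000 randomly drawn UMIs were from *Tbx2*, *Tbx3* or *Tbx5*, which gave 545, 177, 80 and 44 control cells and 534, 200, 98 and 54 mutant cells with 0, 1, 2 and at least 3 T-box UMIs. *Vax2* stood at 226 CPM (217 to 236), 106 CPM (94.8 to 117), 55.8 CPM (44.1 to 69.7) and 31.8 CPM (20.9 to 46.2) over these steps in the control library. In the mutant library it stood at 211 CPM (201 to 220.2), 91.1 CPM (81.4 to 102), 46.3 CPM (36.2 to 58.3) and 16.0 CPM (8.54 to 27.4). *Vax2* was lower beyond the counting intervals at each step from 0 to 2 T-box UMIs in both libraries, while the intervals of the last steps overlapped in the control library and not in the mutant library.

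*Vax1* stood at 4.44 CPM (3.24 to 5.93) with 0 T-box UMIs and at 0 UMIs (up to 4.34 CPM) in the 44 control cells with at least 3, and these intervals overlapped. The mutant level went from 7.75 CPM (6.07 to 9.76) to 0 UMIs (up to 4.55 CPM) in 54 cells, and the intervals did not overlap. At 0 T-box UMIs its mutant level was above the control level beyond the intervals, although the class-wide ratio changed sign with the settings named above. *Pax2* stood at 7.69 CPM (6.08 to 9.59) and 7.43 CPM (5.78 to 9.40) in cells with 0 T-box UMIs and at 1.18 and 1.23 CPM, 1 UMI each, in cells with at least 3.

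The retinoic acid enzymes differed along the same steps. *Aldh1a1*, which makes retinoic acid in the dorsal retina, stood at 99.0, 519, 634 and 917 CPM in the control and at 163, 362, 611 and 988 CPM in the mutant library over the steps of T-box UMIs. *Aldh1a3*, its ventral counterpart, stood at 313, 112, 74.4 and 30.6 CPM in the control and at 274, 94.8, 36.7 and 35.8 CPM in the mutant library. At 1 T-box UMI, *Aldh1a1* differed between the libraries beyond its intervals (495 to 544 against 342 to 382 CPM), as it did in the other direction at 0 (92.9 to 105 against 155 to 171 CPM).

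Placing the same cells by *Vax2* gave the reverse picture. *Tbx2* stood at 63.1 CPM (57.2 to 69.4) in 365 control cells with 0 *Vax2* UMIs, at 26.1 CPM (21.6 to 31.2) with 1 to 2, at 14.8 CPM (11 to 19.5) with 3 to 5 and at 10.3 CPM (5.12 to 18.4) with at least 6. In the mutant library the levels were 59.3, 27.7, 13.6 and 3.69 CPM. *Vax1* was higher along these steps, from 0.453 to 14.9 CPM in the control and from 0.281 to 24.0 CPM in the mutant library. Cells of these steps had median depths between 15065.5 and 17917 UMIs, and those of the T-box steps between 13651.5 and 18199 UMIs.

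**Figure D4:**
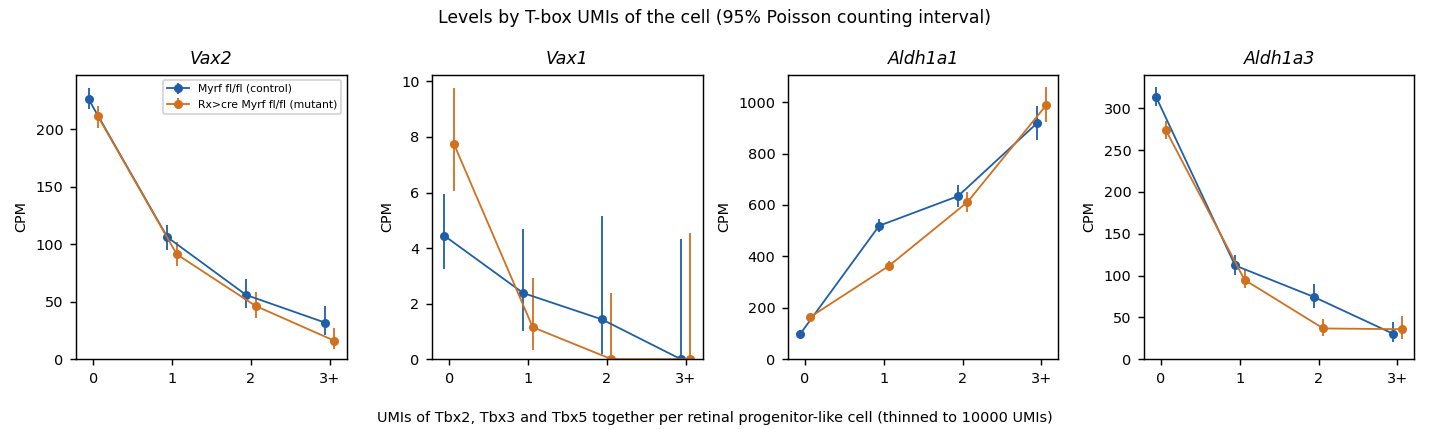
Levels in CPM (y axis) of *Vax2*, *Vax1*, *Aldh1a1* and *Aldh1a3* in retinal progenitor-like cells with 0, 1, 2 and at least 3 UMIs of *Tbx2*, *Tbx3* and *Tbx5* together (x axis), in the control (blue) and mutant (orange) library, with 95% Poisson counting intervals. *Vax2* goes from 226 to 31.8 CPM in the control library and from 211 to 16.0 CPM in the mutant library, and *Aldh1a1* goes the other way.

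The same direction was found in 2 neural classes besides the progenitor-like class. Cells of each class were divided by whether they had any T-box UMI. In progenitor-like cells *Vax2* stood at 94.3 CPM in the 512 control cells with a T-box UMI and at 219.7 CPM in the 1125 cells without, a log2 ratio of -1.22 (-1.34 to -1.10), and the mutant ratio was -1.36 (-1.49 to -1.24). Neurogenic precursor-like cells gave -0.85 (-1.20 to -0.53) and -1.01 (-1.40 to -0.64), and ganglion cell-like cells -0.73 (-1.16 to -0.34) and -0.91 (-1.38 to -0.49). In RPE-like cells the ratio was 0.11 (-0.77 to 0.92) in 26 control cells with a T-box UMI and 0.31 (-1.64 to 1.84) in 8 mutant cells, so no difference was detectable there at this depth. Cells with a T-box UMI were deeper in all these classes (in the control library, medians of 16027.5 against 6409 UMIs for progenitor-like and 15897.5 against 3851.5 UMIs for ganglion cell-like cells), and the part of depth in the ratios was not tested.

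To see which genes went with each end of the axis, progenitor-like cells with *Tbx5* and no *Vax2* (42 control and 55 mutant cells) were set against cells with *Vax2* and no *Tbx5* (791 and 747 cells). *Tbx5* and *Vax2* chose the cells and are not results here. Genes were called where they were at least 1.5-fold higher or lower in both libraries, which held for 3.39% and 2.21% of 9383 genes. *Tbx2* stood at 113 CPM in the *Tbx5* cells and 19.5 CPM in the *Vax2* cells of the control library, and at 75.8 and 20.8 CPM in the mutant library, log2 ratios of 2.52 (2.16 to 2.89) and 1.85 (1.44 to 2.27). *Tbx3* stood at 47.5 and 5.48 CPM in the control and at 58.9 and 9.05 CPM in the mutant library, log2 ratios of 3.08 (2.49 to 3.72) and 2.68 (2.18 to 3.22).

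*Vax1* and *Pax2* passed the minimum of 100 UMIs through the *Vax2* cells, so their values are a description. *Vax1* had 0 UMIs in the *Tbx5* cells of both libraries, against 58 and 80 UMIs in the *Vax2* cells, and was thus at least 1.29-fold and at least 2.09-fold lower when 3 UMIs are allowed in the *Tbx5* cells of a library. *Pax2* had 1 control UMI in the *Tbx5* cells and 79 in the *Vax2* cells, a log2 ratio of -2.26 with an interval that holds no difference (-7.72 to 0.12). In the mutant library *Pax2* had 0 and 80 UMIs and was at least 2.09-fold lower by the same floor, with an exact log2 interval that reached up to -0.73.

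All 4 dorsal retina genes with at least 100 UMIs in the pools were higher in the *Tbx5* cells, with a control median of 3.44 and a mutant median of 3.28, beside 0.06 and 0.07 over all genes. *Aldh1a1* stood at 1467 against 59.1 CPM in the control (4.63, 4.5 to 4.77) and at 1885 against 76.6 CPM in the mutant library (4.62, 4.5 to 4.74). *Nr2f2*, a nuclear receptor, gave 4.39 and 4.16, and the ephrin genes *Efnb2* and *Efnb1* gave 2.48 and 2.39 and 1.96 and 2.11. The dorsal BMP ligand genes *Bmp4* and *Gdf6* were under the minimum, with 19 and 8 *Bmp4* UMIs in the *Tbx5* cells of the control and mutant library and 26 and 3 in the far more numerous *Vax2* cells.

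Of the 5 ventral retina genes that could be compared, 4 were lower in the *Tbx5* cells, with medians of -3.96 and -3.27, or -3.96 and -2.91 with genes at 0 UMIs set at their bounds. *Smoc1*, *Bmpr1b* and *Aldh1a3* (14 and 26 UMIs in the *Tbx5* cells) reached the minimum of 100 UMIs through the *Vax2* cells. The count, the medians and the values of these genes are therefore a description. *Aldh1a3* stood at 18.0 against 342 CPM in the control (-4.24, -5.12 to -3.50) and at 31.3 against 303 CPM in the mutant library (-3.27, -3.89 to -2.72). *Smoc1* had 1 and 0 UMIs in the *Tbx5* cells, *Bmpr1b*, a BMP receptor, had 1 in each library, and *Nr2f1*, the partner of *Nr2f2*, was lower by less (-1.01 and -0.90). *Ephb2*, a receptor of the ephrins, was not called, at -0.10 (-0.75 to 0.48) and 0.19 (-0.37 to 0.71).

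All 6 BMP response genes that could be compared were higher in the *Tbx5* cells, with medians of 1.11 and 1.05. *Bambi*, a decoy receptor induced by BMP, gave 3.54 (3.20 to 3.92) and 4.12 (3.76 to 4.54), and *Id3* gave 1.54 and 1.26. *Id1*, *Id2*, *Smad6* and *Smad7* lay between 0.66 and 1.13, and the intervals of *Smad6* reached below 0 in both libraries and that of *Smad7* in the control. Of the 2 temporal genes compared, *Epha5* was higher (1.2 and 0.81).

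None of the 8 retinal progenitor genes and none of the 10 S and G2/M genes was called, with medians of 0.22 and 0.03 and of 0.27 and 0.15. In the control library alone the G2/M genes *Top2a* (0.65, 0.48 to 0.81) and *Ube2c* (0.66, 0.55 to 0.77) were past 1.5-fold, and both stood at 0.42 in the mutant library. *Ptch1*, the Hedgehog response gene that could be compared, was not called either. The optic disc and stalk genes split, with *Sema5a* higher (0.70, -0.55 to 1.77, and 1.19, 0.08 to 2.20) and *Bmp7* lower (-0.67, -2.15 to 0.48, and -1.48, -3.82 to 0.06) in the *Tbx5* cells, from 10 or fewer UMIs there in each library.

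**Figure D5:**
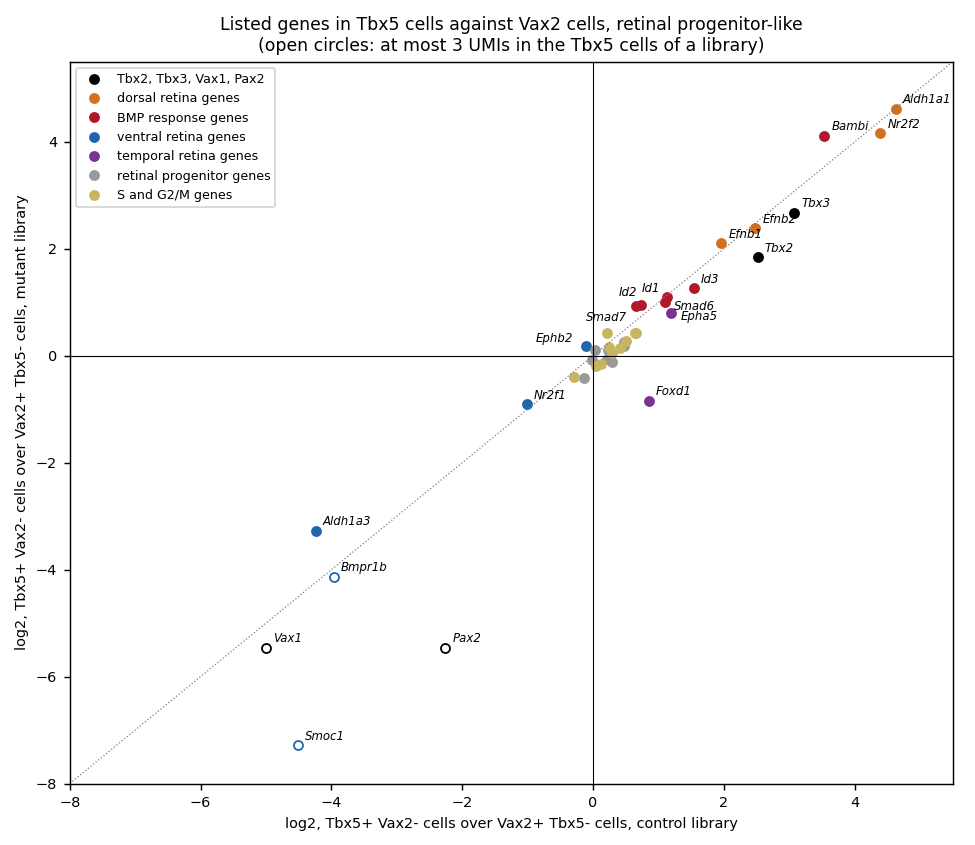
Log2 ratio of *Tbx5* cells over *Vax2* cells in the control (x axis) and mutant (y axis) library for genes of 6 lists and 4 factors with at least 100 UMIs in the pools, coloured by list, with open circles where the *Tbx5* cells of a library held at most 3 UMIs and a dotted line of equal values. Dorsal and BMP response genes lie at the upper right, ventral genes but *Ephb2* at the lower left, and progenitor and S and G2/M genes closer to 0.

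Beyond the lists, the 12 genes highest in the *Tbx5* cells of both libraries were *Aldh1a1*, *Unc5b*, *Nr2f2*, *Bambi*, *Dkk1*, *Vstm2b*, *Pcdh19*, *Efnb2*, *Fstl4*, *Sowaha*, *Pcdh17* and *C130073E24Rik*. *Unc5b*, a netrin receptor, stood at 89.9 against 4.71 CPM in the control and 86.6 against 3.67 CPM in the mutant library, and *Dkk1*, a secreted inhibitor of Wnt signals, at 39.8 against 5.06 CPM and 57.7 against 3.49 CPM. The protocadherins *Pcdh19* and *Pcdh17*, which mediate cell adhesion, gave 2.51 and 2.91 and 2.60 and 2.11. The 12 lowest were *Vax2os*, *Atp6v1b1*, *Gad2*, *Stap2*, *Smoc1*, *Bmpr1b*, *Aldh1a3*, *Myo1c*, *Shisa2*, *Stum*, *Edaradd* and *Ramp2*. *Atp6v1b1*, *Gad2* and *Stap2* had 0 UMIs in the *Tbx5* cells of both libraries and passed the minimum of 100 UMIs through the *Vax2* cells alone, so their place in this order depends on the added UMIs and is no result. The rest of these 12 also reached the minimum through the *Vax2* cells, so the order is a description. *Myo1c*, *Stum*, *Edaradd* and *Ramp2* had at most 3 UMIs in the *Tbx5* cells of a library, and their place depends on the added UMIs too.

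*Vax2os*, the antisense neighbour of *Vax2*, had 0 UMIs in the *Tbx5* cells and 2835 in the *Vax2* cells of the control library, at least 63.1-fold lower, and 1 and 2554 UMIs in the mutant library. It lies on chr6:83692806-83712201 (minus strand) and overlaps 938 bases of the *Vax2* gene, but shares 0 exon bases with the exons of *Vax2*. It was not among the genes left out of the clustering. *Shisa2*, an inhibitor of Wnt and FGF receptor maturation, stood at 1.28 against 82.2 CPM in the control and 10.8 against 69.8 CPM in the mutant library. The intervals of *Stap2* and *Ramp2* reached above 0 in the control.

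The shares of these cells were compared between the libraries. After thinning to 3000 UMIs, cells with *Vax2* and no *Tbx5* were 30.7% (28.4 to 33.2) of the control and 26.3% (24.1 to 28.6) of the mutant progenitor-like cells, a difference of -4.48 points (-7.73 to -1.24). Cells with *Tbx5* and no *Vax2* were 0.693% and 1.31%, a difference of 0.621 points (-0.119 to 1.39), which turned to -0.129 points at 5000 UMIs and to -1.22 points (-2.40 to -0.178) under a mitochondrial limit of 5%. Cells with both were 2 of 1444 in the control and 0 of 1523 in the mutant library, which allows up to 0.242% by the exact interval.

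The genes that act with the factors were little different between the libraries in progenitor-like cells. Of the listed genes with at least 20 UMIs, *Bmp4*, the dorsal BMP ligand gene, alone passed 1.5-fold, with 75 control and 31 mutant UMIs (3.90 and 1.63 CPM, -1.23, -1.91 to -0.64), where 3.51% of genes were at least 1.5-fold lower. The 6 dorsal genes had a median of -0.10 and the 7 ventral genes compared a median of -0.07, beside -0.02 over all genes. *Aldh1a1* stood at 262 and 307 CPM (0.23, 0.17 to 0.28) and *Aldh1a3* at 227 and 184 CPM (-0.30, -0.37 to -0.24). *Efnb2* was at 0.17 (0.02 to 0.32) and *Nr2f2* at -0.21 (-0.37 to -0.04), so the dorsal genes did not share a direction. Of the ventral genes, *Smoc1* was at -0.38 (-0.60 to -0.16), lower like *Aldh1a3*, and *Bmpr1b* was at 0.03 (-0.20 to 0.27). The intervals of the other ventral genes compared also held 0. The 9 BMP response genes had a median of 0.07 and none passed 1.5-fold.

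Across the classes with at least 30 cells in each library, 10 classes and 20 points that share their libraries, the genes most like each factor were ranked by Pearson's r of log2(CPM + 1) among 13320 genes, as a description. *Tbx2* was most like *Tekt1* (0.920), *Rasl11a* (0.912) and *Dnajc12* (0.894), *Tbx3* most like *Zic2* (0.957), *Rorb* (0.940) and *Astn1* (0.936), and *Tbx5* most like *Krt90* (0.923), *Zic2* (0.902) and *Kcnh2* (0.894). *Vax2* was most like *Kcnh2* (0.964) and the eye field genes *Six6* (0.960) and *Mab21l1* (0.947). *Vax1* and *Pax2* were among each other's nearest genes (0.934) and shared *Gm16006* (0.907 and 0.967). Melanocyte-like cells had too few cells in the mutant library to enter this ranking.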

How the data were processed

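The authors made single-cell 3′ libraries and, per the submitters' processing notes, used Cell Ranger 7.1.0, Seurat 4.1.1 and mm10. The headers of the deposited matrices name another, lower software version, and whether intronic reads were counted is not given in the sources used here. The deposited values are UMI counts per gene and barcode, not normalized. Cells needed 200 genes and at most 15% mitochondrial UMIs. Scrublet (scanpy 1.11.5, expected rate 5%) marked 51 control (0.924%) and 74 mutant (1.161%) cells as doublets, which were removed. A ceiling of 2000 UMIs from the study's methods fits 1196 control and 1113 mutant barcodes and was tried as an alternative only. Cells were integrated and clustered in Seurat 5.3.0 under R 4.3.3 with 1977 of 2000 variable features (the factors and listed genes that mark no cell type were left out), 30 components and a resolution of 0.8. A class name needed 3 high markers and no more markers of another class than of its own among the top 10 genes, a rule set after the clusters were seen.

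Counts were summed per class and library in Python 3.11.15 with SciPy 1.17.1. Log2 ratios between libraries add 1 UMI to each sum and needed 20 UMIs over both, and called means 1.5-fold. Ratios between *Tbx5* and *Vax2* cells needed 100 UMIs over the 4 pools and add 2 UMIs shared out by pool size, a change made after the data were seen because 1 UMI in each pool raised low genes in the small pools. The genes named were the factors, the listed genes, the 12 highest and 12 lowest between these cells in both libraries (sex-linked, ribosomal protein, haemoglobin and mitochondrial genes aside) and the 3 most like each factor. The factors and lists were chosen with earlier results of these data known. Placing cells by T-box or *Vax2* UMIs and the division by T-box UMIs were chosen after seeing the data. So were the RPE-like divisions by *Pax2* and *Vax2* and the values without shared barcodes. Positions and sequences came from GRCm38 with GENCODE vM21. The calculations were tested on simulated counts. Values of the nasal retina list between these cells are not reported here.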

Additional observations from a re-analysis of the deposited data

Results flagged for a closer look

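*Foxd1*, a transcription factor gene of the temporal retina, lay on opposite sides in the libraries when *Tbx5* cells were set against *Vax2* cells. The log2 ratio was 0.85 (0.36 to 1.31) in the control, from 43 UMIs in the *Tbx5* cells and 357 in the *Vax2* cells, and -0.84 (-1.56 to -0.20) in the mutant library, from 20 and 457 UMIs. The difference between the libraries was not tested, since there is 1 library per genotype. With cells of any T-box gene set against cells of either Vax gene, the mutant value was 0.59 (0.35 to 0.83).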

How the results depend on the processing

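Of 886 recomputed values over 17 settings, 718 stayed within the counting interval or, for a number of genes, within 1.5 times. A further 156 moved beyond these limits, and 12 that had been past 1.5-fold changed sign. Other changes of sign, as for the *Tbx5* and *Vax1* ratios named above, were not counted as reversals. No paired analysis was possible because there is 1 library per genotype, and for the same reason no replicate could be left out. Values from few UMIs (*Tbx5*, *Vax1* and *Pax2*, and all of the RPE-like class) are limited by depth. The causes of the differences below were not tested, except that other totals or fewer cells and UMIs follow from how a setting is built.

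A ceiling of 2000 UMIs per cell left 226 control and 190 mutant progenitor-like cells, with control and mutant levels of 61.0 and 48.3 CPM for *Tbx2*, 37.5 and 32.2 for *Tbx3*, 9.38 and 16.1 for *Tbx5*, 0 and 10.7 for *Vax1* and 75.1 and 64.4 for *Vax2*, and a *Tbx2* ratio of -0.29. Between *Tbx5* and *Vax2* cells it gave 0 genes higher and 1 lower. The ratios that reversed there were *Tbx2* at -1.11 (control) and -0.67 (mutant), *Id3* at -0.95 and -0.49, *Smad6* and *Foxd1* at -0.66 (control), *Id2*, *Smad7* and *Epha5* at -0.67 (mutant) and *Nr2f1* at 1.09 (mutant), all with intervals that spanned 0, and mutant *Tbx3* was 2.04 and *Vax1* -0.67. The shares of cells differed by -0.848 points (*Vax2* alone) and 0.154 points (neither), and *Vax2* co-detection by 9.28 points with *Tbx2* and -6.85 with *Tbx3* in the control and by 5.59 with *Tbx2*, -5.98 with *Tbx3*, -5.88 with *Tbx5* and -5.82 with *Pax2* in the mutant library.

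A mitochondrial limit of 5% gave 42.7 and 42.3 CPM for *Tbx2* and 4.38 and 4.00 for *Pax2*, mutant levels of 3.27 for *Tbx5* and 2.21 for *Vax1*, ratios of -0.31 for *Tbx5* and -0.22 for *Vax1*, 210 genes higher in *Tbx5* cells, a *Tbx5* share difference of -1.22 points, and co-detection differences of -22.5 (*Tbx2*) and -31.6 (*Tbx5*) in the control and -9.05 (*Tbx2*) in the mutant library. A resolution of 1.6 gave 38.7 CPM for control *Tbx2*, 149.6 and 122 for *Vax2*, 3.96 and 3.04 for *Pax2* and 1.49 for mutant *Vax1*, ratios of -0.85 for *Vax1* and -0.29 for *Vax2*, and mutant co-detection differences of 10.1 (*Vax1*) and -5.07 (*Pax2*), and the class set by a rule per cell gave 10.1 for *Vax1*. Totals without mitochondrial, haemoglobin and ribosomal protein genes gave 53.2 and 55.2 CPM for *Tbx2*, 23.4 and 28.0 for *Tbx3*, 5.26 and 6.64 for *Tbx5*, 4.72 and 6.48 for *Vax1*, 246 and 218 for *Vax2* and 8.04 and 8.14 for *Pax2*. Means over RPE-like cells of log2(CPM/100 + 1) differed by -0.10 for *Tbx2* and -0.09 for *Vax2*.

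Pools by any T-box gene against either Vax gene gave 209 genes higher and 81 lower, and 0.59 for mutant *Foxd1*. Pools by at least 2 UMIs gave 477 lower, *Tbx2* at 2.96 and 2.37, *Tbx3* at 3.79 and 3.75, and control *Smad6* at -0.18. A minimum of 50 UMIs gave 358 lower, and 1 UMI added to each pool, chosen after seeing the data, 495 higher and 100 lower. Thinned to 5000 UMIs, the *Tbx5* share differed by -0.129 points and *Vax2* co-detection by -26.8 (*Tbx2*), -33.1 (*Tbx3*) and -36.3 (*Tbx5*) in the control and -24.6 (*Tbx2*) and -35.8 (*Tbx5*) in the mutant library. Without thinning, it was -35.5 and -40.9 for *Tbx5* and 22.4 for control *Pax2*, which was 13.9 at 2000 UMIs. With no minimum of UMIs, 22.7% of genes passed 1.5-fold in progenitor-like cells.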

Other observations

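*Tbx2* was also found in a cluster that stayed unnamed, led by *Fmo1*, *Spp1* and *Lypd1*, with 138 control and 144 mutant cells. In it 9 of the 11 markers of the class it matched best were high, but none was among its top 10 genes. Of those top genes, *Tfap2b* and *Lypd1* were also among the top 10 of periocular mesenchyme-like clusters. The periocular mesenchyme-like values above do not include this cluster. Its level there was 35.7 CPM (27.8 to 45.2) in the control and 22.4 CPM (16.3 to 29.9) in the mutant library, from 69 and 45 UMIs. *Tbx3* stood at 5.18 and 5.47 CPM in the same cells, *Vax2* had 7 and 3 UMIs, and *Vax1* and *Pax2* had none. The cluster was singled out after its values were seen.

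In the control RPE-like class no cell had UMIs of both Vax genes, with 16 *Vax1* UMIs in 8 cells and 83 *Vax2* UMIs in 55 cells, and the 9 mutant cells with *Vax1* held 3 of the 33 *Vax2* UMIs.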
